A study of Rattus norvegicus with 16 samples.

Results

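The interferon-stimulated genes described here were 10 of the 35849 genes in the table: Mx1, Mx2, Oas1a, Oasl, Isg15, Ifit3 and Rsad2, whose products act on viruses or on infected cells, and Irf7, Irf9 and Usp18, whose products regulate the response. They were taken by gene name, and they were selected on a measured value: Mx1 had been seen to rise in rats given sinomenine (SIN) at 20 mg/kg compared with diabetic nephropathy (DN) rats. The comparison of SIN (20 mg/kg) with DN is therefore given as a description: no p is given for these genes there, and nothing is read from counts of genes that passed a rule. No threshold decided which genes were taken.

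The study asked how SIN, an active compound of herbal medicine, affects gene expression in the diabetic kidney. Renal tissue of 16 male inbred SD rats was sequenced, and 4 rats came from each of 4 groups: normal rats, diabetic rats without the drug (DN), and diabetic rats given SIN at a daily dose of 20 or of 40 mg/kg. All rats outside the normal group had received an injection of streptozotocin (STZ) at 45 mg/kg, which destroys the insulin-producing cells of the pancreas, had been kept for their high blood glucose, and ate a diet rich in glucose and fat, so diabetes here is a chemically induced form. The normal rats had received citrate buffer and a normal diet. SIN was given by gavage for 8 weeks to diabetic rats only, so the effect of SIN on normal rats was not measured. The rats were 6 to 8 weeks old at the start. Rats are named below by their group and the number in the labels.

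Interferons are secreted proteins that warn cells of infection. Type I and type III interferons bind receptors on the cell surface, receptor-bound kinases pass the signal on, and IRF9 takes part in a complex that binds a DNA element in the promoters of interferon-stimulated genes. Interferon gamma has a receptor of its own and turns on a partly different set, among them chemokines and guanylate-binding proteins. In the kidney, interferon-stimulated genes are known from viral infection, lupus and transplant rejection.

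The DNA element that this complex binds holds 2 GAAA cores with 2 bases between them, GAAANNGAAA, which reads TTTCNNTTTC on the other strand. RefSeq promoter windows of the GRCr8 build, from 250 bases before the start of a gene to 50 bases after it, were at hand for 7 of the 10 genes. The motif lay on either strand in 4 of these 7 windows, those of Oas1a, Ifit3, Rsad2 and Irf7, compared with 1312 of 33469 promoters (3.92%). The windows of Mx1, Oasl and Irf9 did not hold these letters. These are descriptions of letters in a window and were not tested, and no binding was measured. The stretches below, 60 bases each on the strand of the gene, are shown since they are where these genes carry the letters the complex is known to bind, with the motif in capitals.
Oas1a, chr12:41330400-41330459, plus strand: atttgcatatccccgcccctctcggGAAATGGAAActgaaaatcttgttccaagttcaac
Ifit3, chr1:241527257-241527316, plus strand: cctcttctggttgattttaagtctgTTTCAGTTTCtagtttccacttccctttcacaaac
Rsad2, chr6:48788233-48788292, minus strand: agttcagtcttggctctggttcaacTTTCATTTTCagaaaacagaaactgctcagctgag
Irf7, chr1:205800058-205800117, minus strand: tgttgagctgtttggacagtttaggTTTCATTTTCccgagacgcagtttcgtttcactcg
The motif began 41 bases before the start of Oas1a, 44 before Ifit3, 69 before Irf7 and 147 before Rsad2. The Oas1a window held a second, overlapping match that began 35 bases before the start. With spacers of 1 to 3 bases allowed, 9.38% of all promoters and again 4 of the 7 windows held a match.

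The total of estimated counts per rat ran from 19616312 to 25217030, and all 10 genes passed the filter on low counts in every comparison. Levels are counts scaled to a common library size (CPM), adjusted by TMM, a method that corrects for differences in RNA composition. Library serial numbers in the labels ran without a gap within each group, so an effect of library order and the treatment cannot be told apart. In whole tissue, fewer cells of a type and less RNA per cell cannot be told apart either. Of 20 kidney markers listed, 19 were in the table and none of these was at 0 in any rat. Estimated counts of Irf9 held fractions in 16 of 16 rats, those of Mx2 and Oas1a in 12, of Mx1 in 9 and of Isg15 in 3, so some of their reads were divided with similar sequences and the division of reads between related genes such as Mx1 and Mx2 is uncertain. Counts of Oasl, Ifit3, Rsad2, Irf7 and Usp18 were whole in every rat.

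Per length of the gene, Irf7 was the highest of the 10. Its mean was 10.6 fragments per kilobase of gene length, scaled to library size (FPKM), in normal rats, 13.0 in DN, 17.5 in SIN (20 mg/kg) and 17.4 in SIN (40 mg/kg). Isg15 and Irf9 followed, with group means of 5.73 to 7.16 and 5.26 to 6.60 FPKM. Oasl was the lowest in normal rats (0.786 FPKM) and in both SIN groups (1.69 and 1.48 FPKM), and Ifit3 was the lowest in DN (1.05 FPKM). The lowest count of any of the 10 genes in a rat was 23, for Oasl in a normal rat.

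Mx1 and Mx2 encode dynamin-like GTPases that block virus replication. Mx1 stood at 7.08, 10.1, 5.43 and 4.66 CPM in DN rats 1 to 4 and at 18.2, 17.1, 18.7 and 16.4 CPM in the SIN (20 mg/kg) rats. In the normal rats it was 6.10, 8.63, 12.3 and 8.44 CPM, and in the SIN (40 mg/kg) rats 3.87, 26.9, 8.12 and 16.1 CPM. All rats given 20 mg/kg lay higher than the DN and the normal rats, whereas the SIN (40 mg/kg) rats spanned the other groups, with rat 1 below all DN rats and rat 2 above all other rats. Mx2 had the same layout. It was 5.97, 6.06, 3.62 and 3.89 CPM in DN and 14.4, 8.94, 11.3 and 12.0 CPM in SIN (20 mg/kg), again with no overlap. In the normal rats Mx2 was 3.66, 5.95, 11.1 and 7.64 CPM, which overlapped the SIN (20 mg/kg) rats. In the SIN (40 mg/kg) rats it was 3.30, 22.1, 6.02 and 9.76 CPM, so that rat 2 was the highest and rat 1 the lowest of all 16.

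**Figure D1:**
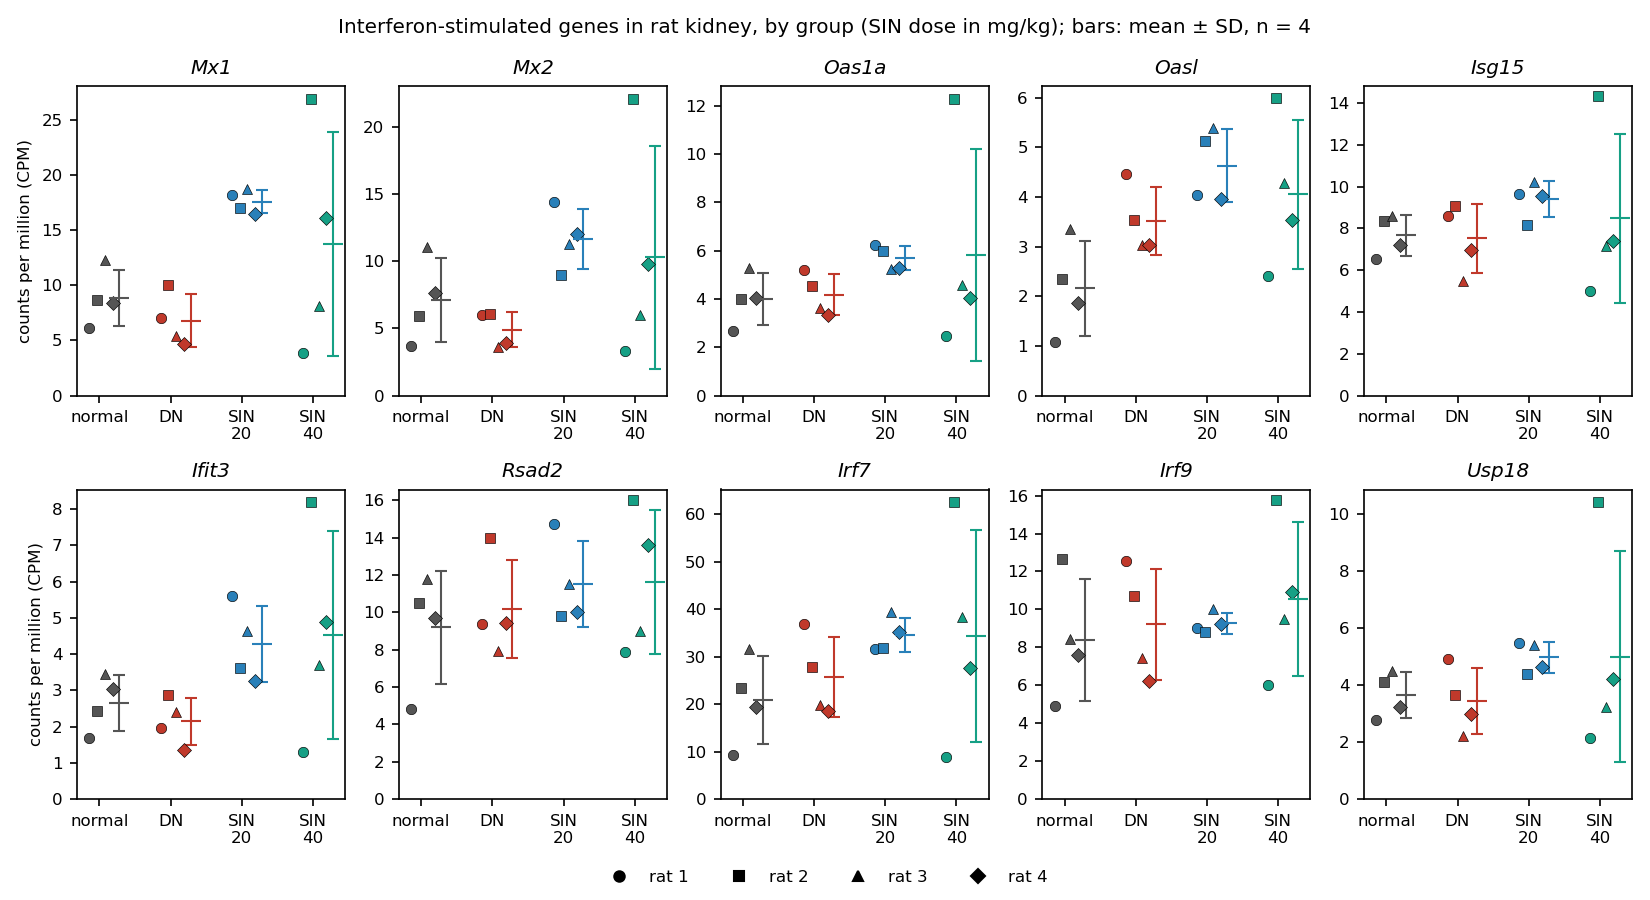
CPM of the 10 genes in each rat (points, shaped by rat number) of the 4 groups, with mean ± SD of 4 rats beside them. The SIN (20 mg/kg) rats lie close together, while SIN (40 mg/kg) rat 2 is the highest of 16 in every panel.

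Oas1a and Oasl belong to the oligoadenylate synthetase family, which senses double-stranded RNA. Oas1a was 5.17, 4.55, 3.62 and 3.32 CPM in the DN rats and 6.25, 5.96, 5.25 and 5.27 CPM in the SIN (20 mg/kg) rats. These groups did not overlap, but the gap between the highest DN and the lowest SIN (20 mg/kg) rat was small. In the SIN (40 mg/kg) rats Oas1a was 2.46, 12.3, 4.57 and 4.02 CPM, so only rat 2 was above the DN range. The normal rats ranged from 2.67 to 5.28 CPM, with a mean of 3.99 ± 1.07 CPM, and overlapped all other groups. Oasl, which resembles the synthetases, was 1.08, 2.34, 3.36 and 1.86 CPM in the normal rats, with a mean of 2.16 ± 0.956 CPM (SD, n = 4). It was 4.47, 3.54, 3.03 and 3.03 CPM in DN, 4.05, 5.13, 5.40 and 3.95 CPM in SIN (20 mg/kg) and 2.41, 5.99, 4.29 and 3.54 CPM in SIN (40 mg/kg). The normal rats lay below the SIN (20 mg/kg) rats without overlap, and the other pairs of groups overlapped, although 3 of the 4 normal rats were below every DN rat.

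Ifit3 encodes a protein that works with other IFIT proteins on viral RNA. It was 1.95, 2.88, 2.40 and 1.35 CPM in DN and 5.60, 3.62, 4.64 and 3.25 CPM in SIN (20 mg/kg), with no overlap. The SIN (40 mg/kg) rats had 1.31, 8.19, 3.69 and 4.88 CPM, so 3 of these rats were above every DN rat and rat 1 was below. Isg15, a ubiquitin-like protein that is joined to other proteins, had group means between 7.53 ± 1.64 CPM in DN and 9.41 ± 0.869 CPM in SIN (20 mg/kg), and its groups overlapped. Rsad2 encodes viperin, an enzyme that makes a chain-terminating nucleotide. Its group means ran only from 9.20 ± 3.04 CPM in normal rats to 11.6 ± 3.84 CPM in SIN (40 mg/kg), and all groups overlapped.

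Among the regulators, Irf7, a transcription factor that drives interferon genes, was 36.8, 27.8, 19.8 and 18.5 CPM in DN and 31.7, 31.9, 39.4 and 35.1 CPM in SIN (20 mg/kg). The ranges overlapped through DN rat 1. Given 40 mg/kg, the rats had Irf7 at 8.90, 62.6, 38.5 and 27.7 CPM, so rat 1 was below and rats 2 and 3 were above every DN rat. Irf9, the DNA-binding part of the complex above, had means of 9.22 ± 2.93 CPM in DN and 9.26 ± 0.550 CPM in SIN (20 mg/kg), with nearly the same level but a narrower spread. Usp18, which removes ISG15 from proteins and dampens the receptor, was 3.44 ± 1.14 CPM in DN, 4.96 ± 0.554 CPM in SIN (20 mg/kg) and 4.99 ± 3.70 CPM in SIN (40 mg/kg).

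In the order of group means, SIN (20 mg/kg) was the highest in 5 genes and SIN (40 mg/kg) in the other 5. DN was the lowest in 5 genes and normal in 5. Neighbouring groups in that order overlapped in every gene except Oas1a, where the SIN (20 mg/kg) rats all lay above the DN rats.

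Compared with DN, SIN (20 mg/kg) had higher fitted levels of all 10 genes, in the contrast the genes were selected on, although Irf9 was lower without DN rat 3, DN rat 4 or SIN (20 mg/kg) rat 3. The log2 fold change was 1.37 (SE 0.22) for Mx1, 1.26 (SE 0.22) for Mx2 and 1.00 (SE 0.29) for Ifit3. It was 0.53 for Usp18, 0.45 for Oas1a, 0.42 for Irf7, 0.40 for Oasl, 0.32 for Isg15, 0.18 for Rsad2 and 0.01 for Irf9. By its methods, the study called a gene when its absolute log2 fold change was 1 or more and its adjusted p below 0.05. Its results name p without adjustment beside the fold and report differentially expressed genes at both doses, from other software settings than those used here. In the edgeR quasi-likelihood fit none of the 10, and 0% of the 15724 genes tested, passed this rule. Groups did not overlap, with SIN (20 mg/kg) higher, in 4 of the 10 genes (Mx1, Mx2, Oas1a and Ifit3) and in 4.87% of all genes.  These counts come from the contrast that selected the genes, and nothing is read from them.

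Rats given 40 mg/kg also had higher fitted levels than DN in all 10 genes, but with a larger SE in each. This comparison shares the DN rats with the one above and is no independent support. Log2 fold changes were 1.09 (SE 0.47) for Ifit3, 1.09 (SE 0.50) for Mx2 and 1.03 (SE 0.50) for Mx1, and from 0.19 for Isg15 to 0.55 for Usp18 in the others. The edgeR quasi-likelihood adjusted p was 0.284 for Ifit3 and 0.299 for Mx2, and 0.555 or more in the other genes apart from Mx1, for which no p is given. No gene of the 10, and 0% of the 15530 genes tested, passed the study's rule. At an unadjusted p under 0.05, 1 of the 10 (Ifit3) was higher, compared with 9.9% of all genes. That count was 3 in DESeq2, in the exact test and with all 16 rats, 4 without SIN (40 mg/kg) rat 1, 2 without DN rat 2 or SIN (40 mg/kg) rat 3, and 0 without any other rat of either group. Of all genes 1537 were higher at that level in the main fit. They were 1472 in DESeq2, 1372 in the exact test, 1544 with all 16 rats and 900 to 1562 in the fits without 1 rat. Groups overlapped in all 10, whereas they did not overlap in 10.7% of all genes. The direction of 7 of the 10 genes turned on 1 rat, and without SIN (40 mg/kg) rat 2 they were lower than in DN. Their log2 fold changes were then -0.17 for Oas1a, -0.20 for Isg15, -0.10 for Usp18, -0.07 for Irf9, -0.04 for Oasl and for Irf7 and -0.0023 for Rsad2. Mx1, Mx2 and Ifit3 kept a higher level, by 0.46, 0.38 and 0.62 on the log2 scale. Without SIN (40 mg/kg) rat 1 all 10 genes stayed higher, and their median log2 fold change was 0.75 in place of 0.46.

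**Figure D2:**
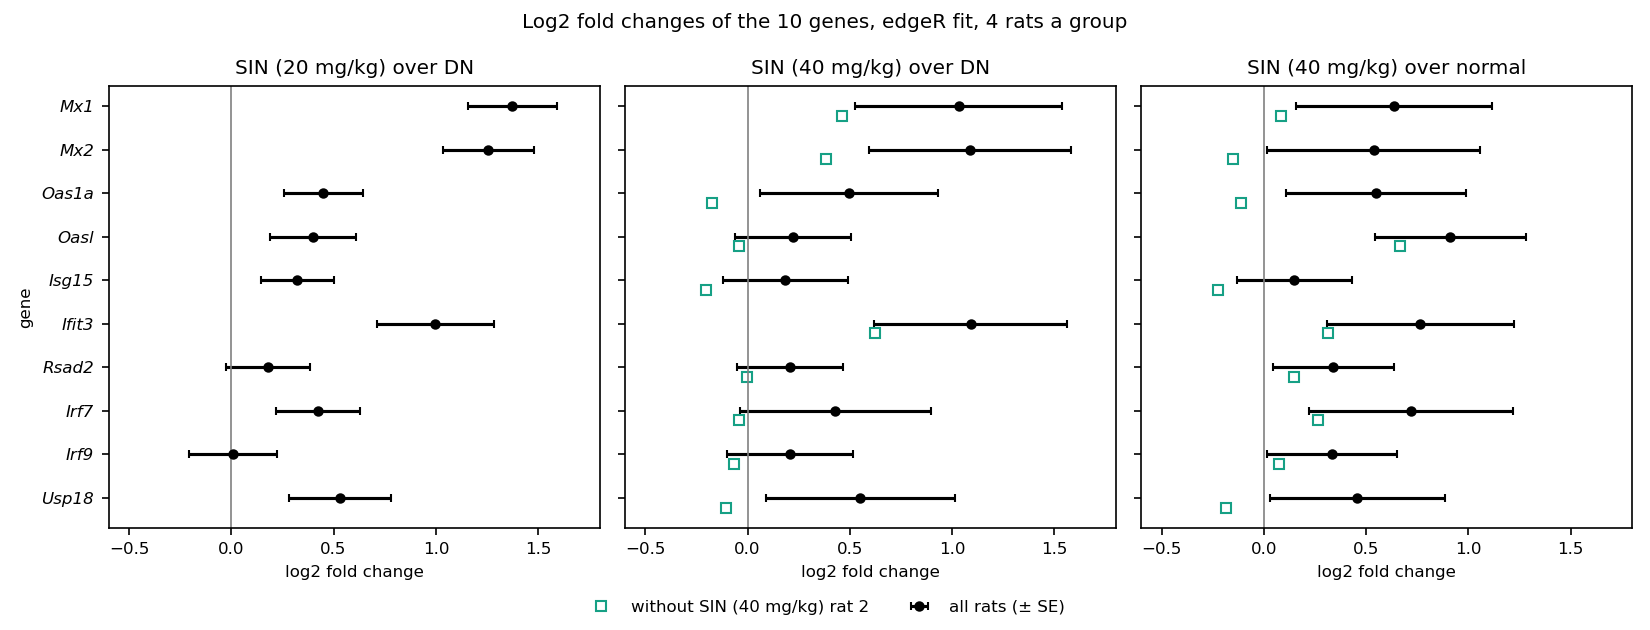
Log2 fold changes (x axis) of the 10 genes (y axis) in 3 comparisons, as edgeR estimates ± SE with all rats (circles) and without SIN (40 mg/kg) rat 2 (squares, drawn without error bars). Error bars are wider at 40 mg/kg than at 20 mg/kg, and leaving out that rat brings 7 of the 10 genes below 0 in SIN (40 mg/kg) over DN.

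The test of the difference between the doses gave no call. The higher dose gave higher fitted levels in 5 genes and lower in 5 than the lower dose, with log2 fold changes from -0.35 for Mx1 to 0.19 for Irf9. In this comparison 0 of the 10 genes passed the study's rule (0.00639% of the 15657 genes tested), 0 had an unadjusted p under 0.05 in either direction (4.98% of all genes), and 0 had groups that did not overlap (3.3% of all genes). DESeq2 and edgeR's exact test also called 0 of the 10. The directions depended on SIN (40 mg/kg) rats 1 and 2. Without rat 2 all 10 genes were lower at the higher dose. Log2 fold changes then ran from -0.90 for Mx1 to -0.0649 for Irf9, with a median of -0.49. In that fit 5 of the 10 had an unadjusted p under 0.05 and none was called. The share of all genes at that level in that fit is not given here, so nothing is read from the count of 5. That rat was the highest of 16 in all 10 genes, so leaving it out lowers their fitted levels at 40 mg/kg. Without SIN (40 mg/kg) rat 1, the lowest of its group in all 10, 8 genes were higher at the higher dose, with a median of 0.21. With all rats the intervals were wide: the 95% interval of the log2 difference was -1.34 to 0.64 for Mx1 and -0.94 to 0.94 for Irf7, so sizeable differences in either direction were not resolved. The comparison shares the SIN (20 mg/kg) rats with the contrast that selected the genes.

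SIN (40 mg/kg) compared with normal rats used neither group of that contrast. All 10 genes were higher in SIN (40 mg/kg), with a median log2 fold change of 0.54, but none passed the study's rule, which 2.47% of the 15735 genes tested did. Oasl had the largest difference, at 0.91 (SE 0.37, 95% interval 0.09 to 1.73, adjusted p = 0.176 in the edgeR quasi-likelihood test), followed by Ifit3 at 0.77 (adjusted p = 0.350) and Irf7 at 0.72 (adjusted p = 0.429). Oasl was the 1 gene of the 10 that was higher at an unadjusted p under 0.05, compared with 11.4% of all genes. The count was 4 without SIN (40 mg/kg) rat 1 and 0 without SIN (40 mg/kg) rat 2 or 3 or normal rat 1, 2 or 4. Of all genes 1280 to 2046 were higher at that level in the fits without 1 rat. For Oasl the adjusted p in edgeR and DESeq2 ran from 0.0614 to 0.405 over the alternatives. Groups overlapped in all 10 genes and did not overlap in 13.9% of all genes. Without SIN (40 mg/kg) rat 2 the median log2 fold change of the 10 genes was 0.0805, Mx2 (-0.15), Oas1a (-0.11), Isg15 (-0.22) and Usp18 (-0.18) were lower than in normal rats, and Oasl was still higher by 0.67 on the log2 scale. Without SIN (40 mg/kg) rat 1 all 10 were higher, with a median of 0.81.

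DN compared with normal rats split the 10 genes evenly, with 5 higher and 5 lower. Mx2 (-0.54, SE 0.33), Mx1 (-0.39, SE 0.28) and Ifit3 (-0.32, SE 0.31) were the lowest. Oasl was the highest, at 0.70 (SE 0.33, edgeR quasi-likelihood adjusted p = 0.157), followed by Irf7 at 0.30 (SE 0.34). None of the 10 passed the study's rule, compared with 3.8% of the 15775 genes tested. None had an unadjusted p under 0.05 in either direction, compared with 36.9% of all genes, and groups overlapped in all 10, compared with 24.3% of genes that did not. DESeq2 gave 1 of the 10 an unadjusted p under 0.05 and edgeR's exact test gave 0. Of all 15775 genes, 6001 in DESeq2 and 5433 in the exact test were at that level. The DN rats are shared with the contrast that selected the genes.

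The 10 genes went up and down together over the 16 rats. Within a group this was plainest in the normal and the SIN (40 mg/kg) rats, where 1 rat was the lowest in all 10 genes. In SIN (20 mg/kg) rat 1 was the highest in 5 genes and rat 3 in 5, and in DN rats 1 and 2 were the highest in 5 each. SIN (40 mg/kg) rat 2 had the highest level of all 16 rats in 10 of 10 genes, whereas it was the highest in 3.79% of the 15229 genes tested in every comparison. SIN (40 mg/kg) rat 1 had the lowest level of the 16 in 7 of the 10 (5.17% of all genes) and normal rat 1 in the other 3 (7.6% of all genes). Within its group, normal rat 1 was the lowest in all 10 genes and normal rat 3 the highest in 9. When log2 CPM was standardized per gene and averaged over the 10 genes, SIN (40 mg/kg) rat 2 stood at 1.97 SDs and ranked first, the 4 SIN (20 mg/kg) rats ranked 2 to 5 with 0.38 to 0.80, and SIN (40 mg/kg) rat 1 and normal rat 1 were last with -1.49 and -1.56.

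**Figure D3:**
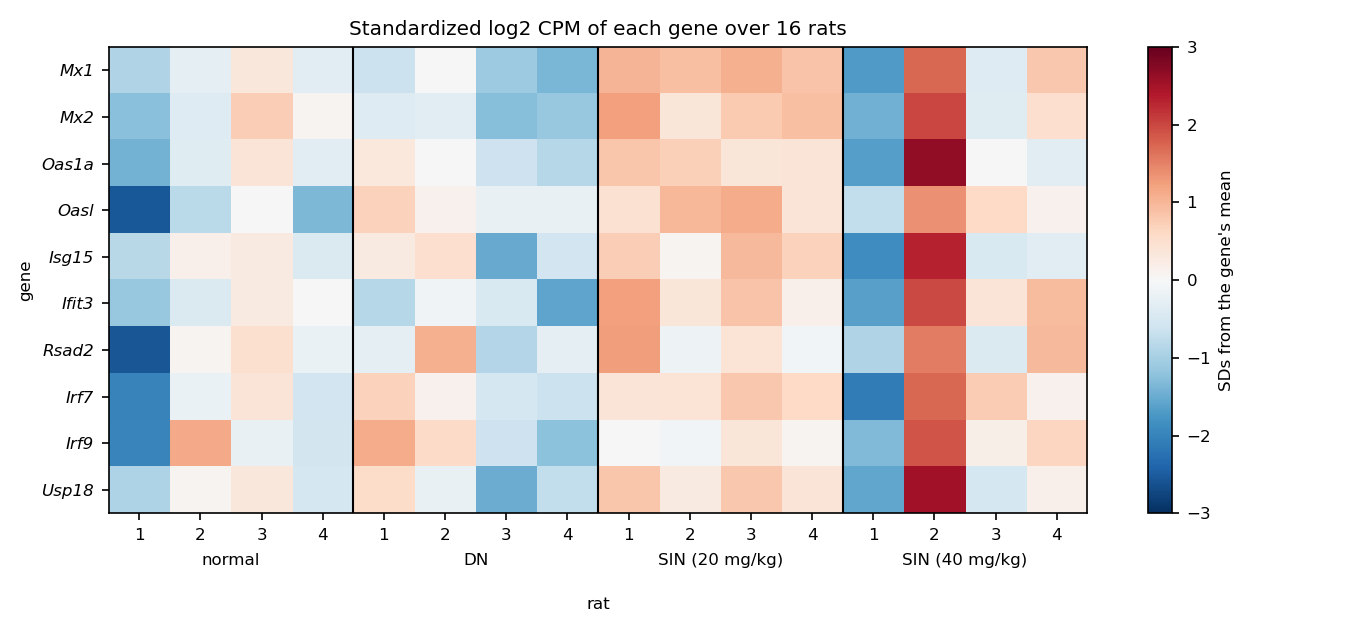
Log2 CPM of each gene (rows) in each rat (columns, by group), in SDs from the mean of that gene over 16 rats. SIN (40 mg/kg) rat 2 is the highest of 16 in all 10 genes, and SIN (40 mg/kg) rat 1 and normal rat 1 are the lowest of their groups in all 10.

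The correlation of log2 CPM between 2 of the genes over 16 rats had a median Pearson r of 0.77, from 0.62 to 0.96 over all pairs. After the group means were taken off, the median was 0.82, with the 4 groups pooled. SIN (40 mg/kg) rats 1 and 2 and normal rat 1 lay far from their group means, and r was not computed without them or for each group. The points share libraries and depth, and these values are descriptions. The pair with the highest r was Isg15 and Usp18, at 0.96, and Mx1 and Mx2 had 0.95.

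The spread within a group was not the same in the 4 groups. The SD of log2 CPM was the smallest in SIN (20 mg/kg) in all 10 genes, with a median of 0.15, compared with 0.22 over all genes in that group. It was the largest in SIN (40 mg/kg) in 8 genes and in normal rats in the other 2, with medians of 0.95 and 0.49, whereas the median over all genes was 0.21 in each of these groups. DN had a median of 0.42. SIN (20 mg/kg) and DN are the groups of the contrast that selected the genes, and the 10 genes varied together. The spread is therefore a description, and a difference in spread was not tested.

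Leukocytes express interferon-stimulated genes, and 25 leukocyte markers were summed in each rat. The sum was 301 to 647 CPM in normal, 435 to 549 in DN, 404 to 506 in SIN (20 mg/kg) and 385 to 514 in SIN (40 mg/kg). Most of the sum was Lyz2, at 313 ± 34.8 CPM in DN and 296 ± 30.5 CPM in SIN (20 mg/kg). Ptprc, the general leukocyte marker CD45, was in a different order, at 8.44 to 14.1 CPM in the normal rats and with means of 6.29 ± 1.44 in DN, 9.86 ± 3.45 in SIN (20 mg/kg) and 8.10 ± 2.60 in SIN (40 mg/kg). It fell in DN over normal by 0.81 on the log2 scale (SE 0.22, edgeR adjusted p = 0.0328) and was at 0.65 in SIN (20 mg/kg) over DN (SE 0.26, edgeR adjusted p = 0.302). Cd4 went the other way, at 50.7 to 61.2 CPM in DN and 33.5 to 40.2 CPM in SIN (20 mg/kg). Of 19 leukocyte markers tested in SIN (20 mg/kg) over DN, 8 were higher and 11 lower. Of all 15724 genes, 7698 were higher and 8026 lower. Lyz2, Ptprc and Cd4 were chosen for mention after their values were seen. SIN (40 mg/kg) rat 2, the highest in all 10 genes, had the lowest sum of its group, at 385 CPM, and normal rat 1, last by the mean of the 10 genes, had the lowest sum of all, at 301 CPM. Normal rat 2 had the highest sum, at 647 CPM, and ranked 11 by the mean of the 10 genes. Siglech, which marks plasmacytoid dendritic cells, the main makers of type I interferon, was at 0 in 14 of 16 rats and never above 1 count. Ms4a1, which marks B cells, was at 0 in 6 rats. The part of leukocyte content in the levels of the 10 genes was not tested.

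**Figure D4:**
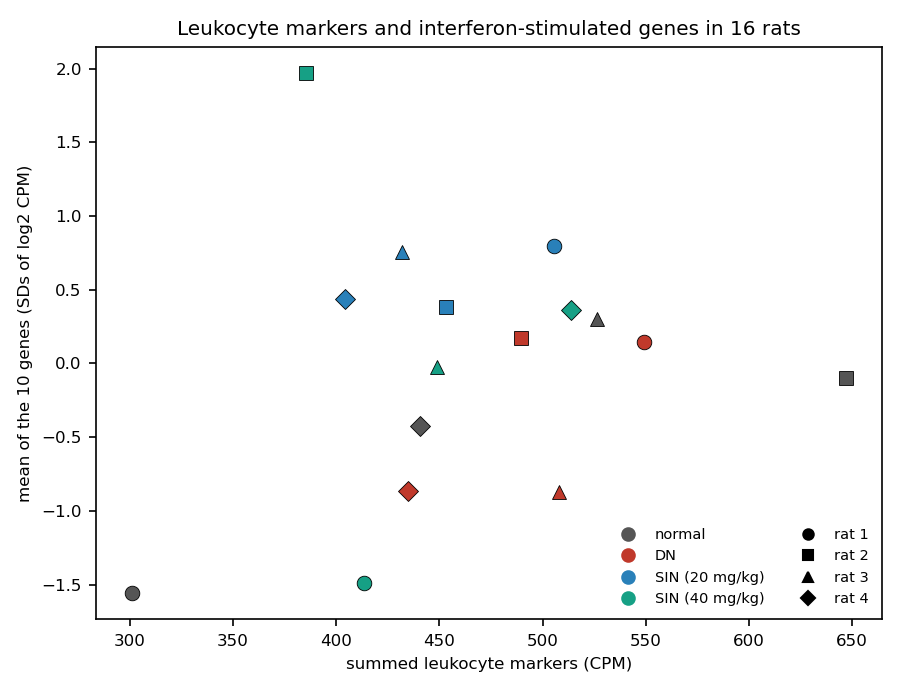
Summed CPM of 25 leukocyte markers (x axis) and the mean standardized log2 CPM of the 10 genes (y axis) in 16 rats, coloured by group and shaped by rat number. The rat with the highest mean, SIN (40 mg/kg) rat 2 at 1.97, has a sum of 385 CPM, and the rat with the highest sum, normal rat 2 at 647 CPM, has a mean of -0.10.

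The interferons themselves were not detectable at this depth. Of 12 interferon genes in the table, 10 were at 0 in every rat, among them Ifnb1 and the listed alpha interferons. Ifng had 1 count in SIN (40 mg/kg) rat 2 and Ifne had 1 count in SIN (40 mg/kg) rat 4. A count of 0 allows up to 3 counts, which is 0.119 to 0.157 CPM in these libraries and covers counting error only. All 6 interferon receptor genes passed the filter, and none passed the study's rule in any comparison. The largest difference among them was Il10rb in SIN (40 mg/kg) over normal, at -0.32 (SE 0.11, edgeR adjusted p = 0.134).

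The wider pathway was described with lists chosen by what the genes are known for. Of 56 other interferon-stimulated genes tested, 46 had higher fitted levels in SIN (20 mg/kg) than in DN, with a median log2 fold change of 0.26, compared with -0.01 over all genes. Of the 56, 18 were higher and 0 lower at an unadjusted p under 0.05, compared with 9.2% of all genes that were higher, and none passed the study's rule. The count of 18 was 7 without SIN (20 mg/kg) rat 1, 10 without DN rat 4 and 20 without SIN (20 mg/kg) rat 4. Of all genes 1446 were higher at that level with all rats, and 809, 1442 and 1660 in these fits, in the same order. The largest were Ifi44l at 1.13 (SE 0.31), Herc6 at 1.13 (SE 0.38), a ligase that attaches ISG15, and Oas2 at 1.02 (SE 0.31), another synthetase. Ifi44l was 2.13 to 2.69 CPM in DN and 3.77 to 9.22 CPM in SIN (20 mg/kg). This is again the contrast that selected the 10 genes.

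At 40 mg/kg over DN, 36 of the 56 were higher, with a median of 0.14, and 8 were higher and 0 lower at an unadjusted p under 0.05, compared with 9.9% of all genes that were higher. That count was 4 without SIN (40 mg/kg) rat 2 or rat 4 and 5 without DN rat 1, 3 or 4. It was 12 without SIN (40 mg/kg) rat 1, 11 without DN rat 2 and 10 without SIN (40 mg/kg) rat 3. Of all genes 1537 were higher at that level with all rats. They were 1074 without SIN (40 mg/kg) rat 2, 900 without rat 4, 958 without DN rat 1 and 1282 to 1562 in the other fits. Without SIN (40 mg/kg) rat 2 the median turned to -0.05. The largest differences were Ifit1bl at 1.13 (SE 0.33, edgeR adjusted p = 0.200), Oas2 at 1.03 (SE 0.58) and Herc6 at 0.94 (SE 0.44). Ifit1bl was 0.477 ± 0.127 CPM in DN and 1.04 ± 0.184 CPM in SIN (40 mg/kg), without overlap, and here rat 1 was the highest of its group. Between the doses 0 of the 56 were higher or lower at an unadjusted p under 0.05 in the edgeR quasi-likelihood fit, and DESeq2 and the exact test also gave 0 higher.

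DN compared with normal had the calls on this list in the edgeR quasi-likelihood fit, 1 gene in each direction, and 3.8% of all genes were called in this comparison, so 2 of 56 is near the background. Herc6 fell by 1.19 on the log2 scale (SE 0.29, edgeR quasi-likelihood adjusted p = 0.0245), with 4.89 ± 1.05 CPM in normal rats and 2.15 ± 0.813 CPM in DN, without overlap. Tor3a, an ATPase of the endoplasmic reticulum, rose by 1.26 (SE 0.36, adjusted p = 0.0395, edgeR), with 3.89 ± 1.34 CPM in normal rats and 9.32 ± 4.03 CPM in DN, and the groups overlapped. Neither call was stable. Tor3a lost it without any 1 of the 4 normal rats, without DN rat 1 or 2 and with a replicate block, and over the alternatives its adjusted p ran from 0.00448 to 0.0995. Herc6 lost it without normal rat 3, normal rat 4 or DN rat 1 and in the fit with all 16 rats, with adjusted p from 0.00173 to 0.0718. At an unadjusted p under 0.05, 5 of the 56 were higher and 12 lower, compared with 2768 higher and 3055 lower of all 15775 genes. At 40 mg/kg over normal, 6 were higher and 1 lower at that level, and none was called in the edgeR quasi-likelihood fit. Of all genes 11.4% were higher at that level and 2.47% were called, so the count of 6 is not above the background. Oas1g had the largest difference, at 1.77 (SE 0.76, edgeR adjusted p = 0.203). Its estimated counts were low, at 0.07, 30.82, 20.14 and 8 in the normal rats and 18.29 to 79.5 in SIN (40 mg/kg). Over the alternatives its log2 fold change ran from 1.36 to 2.48. Tor3a was at 1.19 (SE 0.34, edgeR adjusted p = 0.0732), and DESeq2, the exact test and the fit without SIN (40 mg/kg) rat 1 called it.

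**Figure D5:**
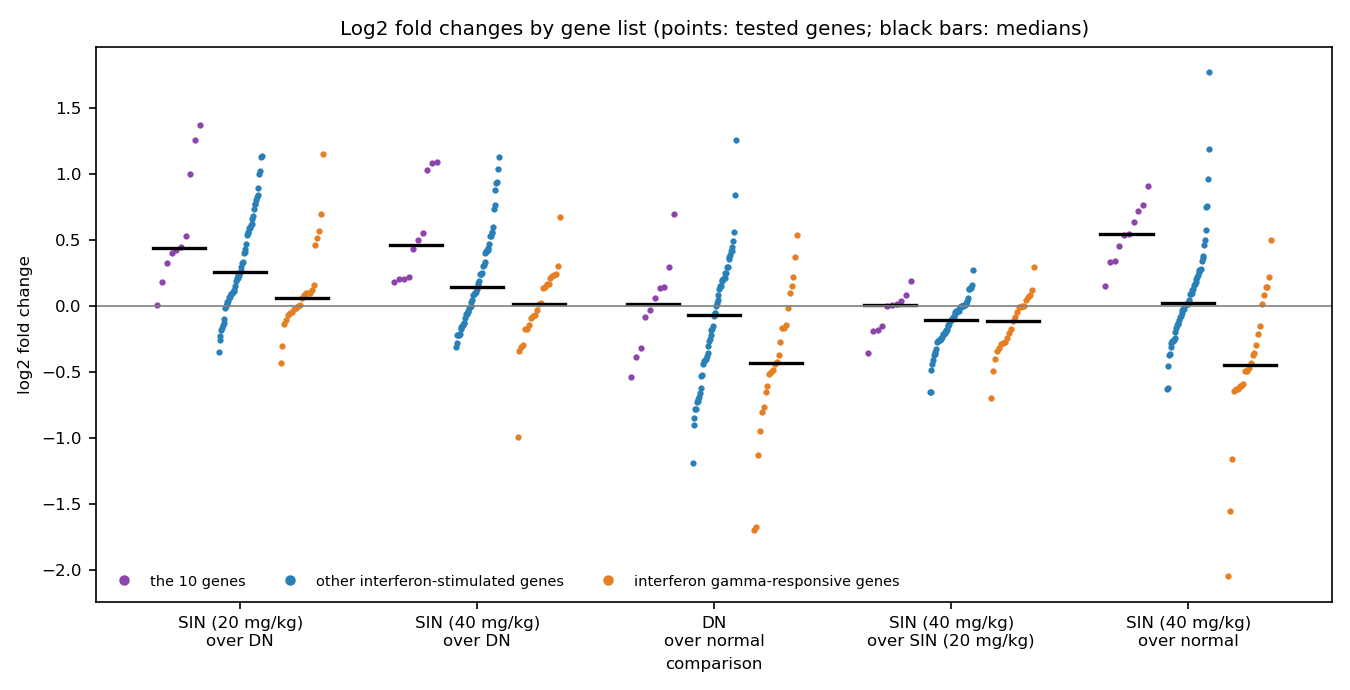
Log2 fold changes (y axis) of the 10 genes, 56 other interferon-stimulated genes and the tested interferon gamma-responsive genes in the 5 comparisons (x axis), a point per gene, with medians as black bars. Medians of the 10 genes and of the other interferon-stimulated genes are above 0 at both doses over DN (0.14 for the latter at 40 mg/kg, and -0.05 without rat 2 of that group), and the median of the interferon gamma-responsive genes is -0.43 in DN over normal (-0.0061 without normal rat 2).

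Genes that respond mainly to interferon gamma had another layout. In SIN (20 mg/kg) over DN 13 of 23 were higher and 10 lower, with a median of 0.06 and Gbp1 at 1.15 (SE 0.43). In DN over normal 19 of 24 were lower, with a median of -0.43, and none passed the study's rule. Cxcl9, a chemokine for T cells, had the largest difference, at -1.70 (SE 0.61, edgeR adjusted p = 0.0773), and in SIN (40 mg/kg) over normal it was at -2.05 (SE 0.58, edgeR adjusted p = 0.0696). DESeq2, the exact test and the fit with all 16 rats called Cxcl9 in both comparisons. Its level was 12.1 CPM in normal rat 2 and 2.75 to 2.78 CPM in the other normal rats. Normal rat 2, which had the highest leukocyte sum, was the highest of 16 rats in 18 of 23 of these genes. Without it 13 of 24 were lower in DN and the median was -0.0061. The part of leukocyte content in this result was not tested.

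Among the genes between receptor and nucleus, Tyk2 rose in DN over normal by 0.35 (SE 0.11, edgeR adjusted p = 0.0447), under the fold of the study's rule. Jak2 was at -0.57 in the same comparison (SE 0.19, edgeR adjusted p = 0.0580). Socs1, an inhibitor of the kinases, was at -1.16 in SIN (40 mg/kg) over normal (SE 0.36, edgeR adjusted p = 0.0841, and called by the exact test) and at -0.99 in SIN (40 mg/kg) over DN (SE 0.36, edgeR adjusted p = 0.230). Among sensors of nucleic acid, Tbk1, a kinase that activates IRF3, fell in DN over normal by 0.56 (SE 0.13, edgeR adjusted p = 0.0225), again under that fold. Ifih1, a sensor of long double-stranded RNA, was at 0.89 (SE 0.29) in SIN (20 mg/kg) over DN and at 0.55 (SE 0.23, edgeR adjusted p = 0.276) in SIN (40 mg/kg) over DN.

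The genes whose log2 CPM followed the mean of the 10 genes most closely over 16 rats were drawn from 15219 other genes. The 8 nearest were AABR07058464.1 (r = 0.93), Oas2 (0.91), Rtp4 (0.91), RT1-T24-4 (0.87), Apol9a (0.85), Oas1f (0.83), Rnf213 (0.82) and the assembled locus MSTRG.18365 (0.81). After group means were taken off, only 4 of these stayed among the 8 nearest: RT1-T24-4 fell to rank 11, Oas1f to 29, MSTRG.18365 to 38 and Rnf213 to 80. AABR07058464.1, which has no gene symbol, was 3.49 ± 1.32 CPM in normal, 3.52 ± 1.30 in DN, 4.78 ± 0.989 in SIN (20 mg/kg) and 4.73 ± 3.09 in SIN (40 mg/kg). Rnf213, a large ubiquitin ligase, had group means from 34.5 ± 2.83 CPM in normal to 45.3 ± 10.1 CPM in SIN (20 mg/kg). RT1-T24-4, a class I histocompatibility gene, had group means from 58.6 ± 9.56 CPM in normal to 71.0 ± 7.19 CPM in SIN (20 mg/kg). Estimated counts of AABR07058464.1, RT1-T24-4 and Oas1f held fractions, so some of their reads were divided with similar sequences. The order is a description over shared libraries.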

How the data were processed

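RNA of renal tissue was sequenced on an Illumina platform after oligo(dT) enrichment. The authors trimmed the reads, aligned them with TopHat to Rnor_6.0 and deposited estimated counts per gene, before normalization. RSEM and Bowtie are named in the submitters' processing notes. Columns of 4 libraries that no sample record names were not used. Counts were rounded (86.2% of values were whole) and tested with edgeR 4.0.16 in R 4.3.3: TMM scaling, filterByExpr, the two-sided quasi-likelihood test and Benjamini-Hochberg adjustment over all genes tested, in a fit per comparison on 4 rats a group. Steps were tested on simulated data. CPM on the log2 scale used a prior count of 2, and FPKM used the gene length in the table. No 2 libraries of a group agreed within counting noise. Alternatives were DESeq2 1.42.0, edgeR's exact test, RLE, other filters, all 16 rats in one fit, a replicate block and leaving out each rat.

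The genes and lists were chosen with earlier results of these data known. Named genes were the 10 members, called genes of each list with the 3 of largest absolute log2 fold change, and the 8 genes most like the mean of the 10. Promoter windows came from RefSeq (GRCr8), whose coordinates differ from the build of the counts. Some items of the lists are not reported here.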

Additional observations from a re-analysis of the deposited data

How the results depend on the processing

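Of the 10 genes, 0 passed the study's rule in each of the 5 comparisons, and this held under every alternative except in SIN (20 mg/kg) over DN, where DESeq2 and edgeR's exact test each called 2 (Mx1 and Mx2). That contrast selected the genes, so these calls are no evidence, and the cause of the difference between tools was not tested. Correlations of same-numbered rats ran from -0.28 to 0.30, and the main fits did not pair the rats by number. Only 1 correlation was over 0.1, that of the rats numbered 1 in SIN (40 mg/kg) over normal. These rats were the lowest of their groups in all 10 genes. The fit with a replicate block called 0 of the 10 in every comparison, and 383 genes in place of 599 in DN over normal. At an unadjusted p under 0.05 it gave 3 of the 10 in place of 1 in SIN (40 mg/kg) over normal. There 2029 of all genes, in place of 1787, were higher at that level. In SIN (40 mg/kg) over DN it gave 0 of the 10 in place of 1, and 1136 of all genes, in place of 1537, were higher. Under that block Oas1a (-0.20), Ifit3 (-0.0904), Rsad2 (-0.0195) and Usp18 (-0.23) changed direction in SIN (40 mg/kg) over SIN (20 mg/kg). Genes called differed by test: in SIN (20 mg/kg) over DN 0 in edgeR, 29 in DESeq2, 26 in the exact test, 5 with all 16 rats and 2 with either other filter, in SIN (40 mg/kg) over DN 0, 57, 40 and 2 with all 16 rats, and in SIN (40 mg/kg) over SIN (20 mg/kg) 1, 4, 3 and 0 with all 16 rats or the block. Leaving out 1 rat gave 0 to 3 in SIN (40 mg/kg) over DN, 306 to 741 in DN over normal, 0 to 5 between the doses and 259 to 410 in SIN (40 mg/kg) over normal.

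The count of other interferon-stimulated genes higher at an unadjusted p under 0.05 was recomputed as a check chosen after seeing the data: in SIN (20 mg/kg) over DN it was 18, and 13 to 18 under the alternatives that kept all rats. Of all genes 910 to 1697 were higher at that level under these alternatives. Leaving out 1 rat also changed directions, all of uncalled genes, and log2 fold changes then ran as follows. In SIN (40 mg/kg) over DN they ran from -0.17 to 0.75 for Oas1a, -0.0399 to 0.40 for Oasl, -0.20 to 0.37 for Isg15, -0.0023 to 0.40 for Rsad2, -0.0396 to 0.75 for Irf7, -0.0662 to 0.40 for Irf9 and -0.10 to 0.80 for Usp18. In SIN (20 mg/kg) over DN they ran from -0.14 to 0.19 for Irf9. In DN over normal they ran from -0.0943 to 0.23 for Oas1a, -0.0699 to 0.29 for Rsad2, -0.0529 to 0.39 for Irf9, -0.13 to 0.10 for Isg15, -0.31 to 0.0773 for Usp18 and -0.0193 to 0.42 for Ifnlr1. In SIN (40 mg/kg) over SIN (20 mg/kg) they ran from -0.17 to 0.16 for Rsad2, -0.63 to 0.26 for Usp18, -0.46 to 0.31 for Irf7, -0.37 to 0.39 for Ifit3, -0.86 to 0.11 for Mx2, -0.52 to 0.0345 for Isg15, -0.62 to 0.29 for Oas1a, -0.0649 to 0.38 for Irf9 and -0.82 to 0.0611 for Gbp4. In SIN (40 mg/kg) over normal they ran from -0.15 to 0.84 for Mx2, -0.11 to 0.80 for Oas1a, -0.22 to 0.33 for Isg15, -0.18 to 0.70 for Usp18 and -0.0742 to 0.36 for Ifnlr1. Groups held 4 rats, and leaving out SIN (40 mg/kg) rat 1 or rat 2 moved the medians at 40 mg/kg in opposite directions. The data therefore limit what can be said of that dose.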
